A study of Mus musculus with 6 samples.

Results

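The synaptic vesicle release machinery was followed as 61 protein-coding genes among the 35275 rows of the deposited count table. The members were chosen by name, as the synaptotagmins, SV2 proteins, complexins, RIM proteins, VAMP proteins, syntaxins, syntaxin-binding proteins and synapsins, together with Snap25, Syp, Unc13a, Bsn and Pclo. The rule used no measured difference between the groups, although earlier results of these data were known when it was made. A summed count of at least 30 over all libraries was also required. Of the 64 protein-coding genes with such a name, Cplx3 with 7 reads, Cplx4 with 1 and Syt8 with 6 were below that minimum, while Stx19 with 40 and Stx11 with 59 were just above it. Stx19 did not pass the filter of the test on low counts, so 60 members were tested.

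Poly(A) RNA of whole spinal cord was sequenced from 3 mice that lacked Sox2 in astrocytes (Sox2 cKO) and from 3 control mice (Ctrl), all on a C57BL/6 background. Sox2 cKO mice carried mGfap-Cre, in which the mouse Gfap promoter drives Cre recombinase mainly in astrocytes, with Sox2 fl/fl. The sample labels give the Ctrl genotype as mGfap-Cre with Sox2+/+, whereas the study's methods name Sox2 fl/fl littermates, and the age is 90 days in one label and 80 days in the protocol. The methods list females and males in each group, and the sources used here do not give the sex of each library. The comparison asks how the spinal cord transcriptome differs after astrocytic loss of the transcription factor SOX2, and the release machinery belongs mainly to cells in which this Cre is not designed to act.

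At a nerve terminal, vesicles filled with transmitter are held close to the active zone and fuse with the plasma membrane when calcium enters. VAMP on the vesicle and syntaxin and SNAP-25 on the plasma membrane zip together into the SNARE complex, Munc13 proteins prepare that complex, complexin clamps and assists it, and synaptotagmin senses calcium. In the spinal cord and hindbrain, Vamp1 and Syt2 are known as prominent forms next to Vamp2 and Syt1, which are better known from the forebrain.

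The columns of the deposited tables carry numbers and no sample names, so libraries are called by number. Even numbers (2, 4 and 6) were read as Ctrl and odd numbers (1, 3 and 5) as Sox2 cKO, as on a blot in the study that numbers its mice, and the group means listed by the authors matched this assignment within 0.1% for 1999 of 1999 genes. Sox2 itself was at 19.9, 14.8 and 29.5 CPM, the count scaled to a common library size, in libraries 2, 4 and 6 of Ctrl and at 3.16, 2.69 and 2.98 CPM in libraries 1, 3 and 5 of Sox2 cKO. Libraries held between 21507911 and 28392184 counts. The test was the quasi-likelihood test of edgeR over all 16137 genes that passed its filter, with Benjamini-Hochberg adjustment, and a gene was called where the adjusted p was below 0.05. CPM values use TMM scaling factors.

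Ctrl library 2 and Sox2 cKO library 1 stood apart from the rest of their groups. Ctrl library 2 was the one nearest to the Sox2 cKO mean for 41 of 60 members (68.3%, against 62.5% of all genes), and Sox2 cKO library 1 was the one farthest from the Ctrl mean for 42 of 60 (70%, against 55.8% of all genes). The calls depended on single libraries. Without Ctrl library 4 or without Sox2 cKO library 1, edgeR called 0 members (26 and 8 of all genes), where 15 and 19 members had an unadjusted p below 0.05. DESeq2 called 6 and 8 members there (1981 and 2342 of all genes). Without Ctrl library 6, Sox2 cKO library 3 or Sox2 cKO library 5, edgeR called 2, 6 and 8 members (1082, 1359 and 2665 of all genes). Without Ctrl library 2 it called 30 members (6119 of all genes), so the calls over all genes rose and fell as well. No member was called in every one of these 6 edgeR fits, and Cplx2 and Stxbp4 were called in 4, the most of any. The direction of the 15 members called with all libraries was the same in all 6.

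With all 6 libraries, 15 of 60 members were called, or 25%, against 24.6% of all genes tested. Of these, 11 were lower in Sox2 cKO (18.3%, against 12.4% of all genes) and 4 were higher (6.67%, against 12.2%). The share of members called was thus close to that of all genes. The median log2 fold change was -0.09 over the members and 0.02 over all genes, 38 of 60 members were below 0, and 51 differed by less than 0.5 in either direction. CPM did not overlap between the groups for 29 of 60 members, or 48.3%, against 44.7% of all genes. DESeq2 called 19 of the 59 members it tested (13 lower and 6 higher, 32.2%, against 27.7% of all genes), and 14 of the 15 edgeR calls were among them, Sv2c being the exception. The split differed in limma with log2(FPKM + 1), which also has another scale, filter and test. It called 5 members lower and 8 higher, and of all 14756 genes it tested, 915 lower and 2670 higher, at a median of 0.09. In bulk tissue, fewer cells of a type and less RNA per cell cannot be told apart.

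**Figure D1:**
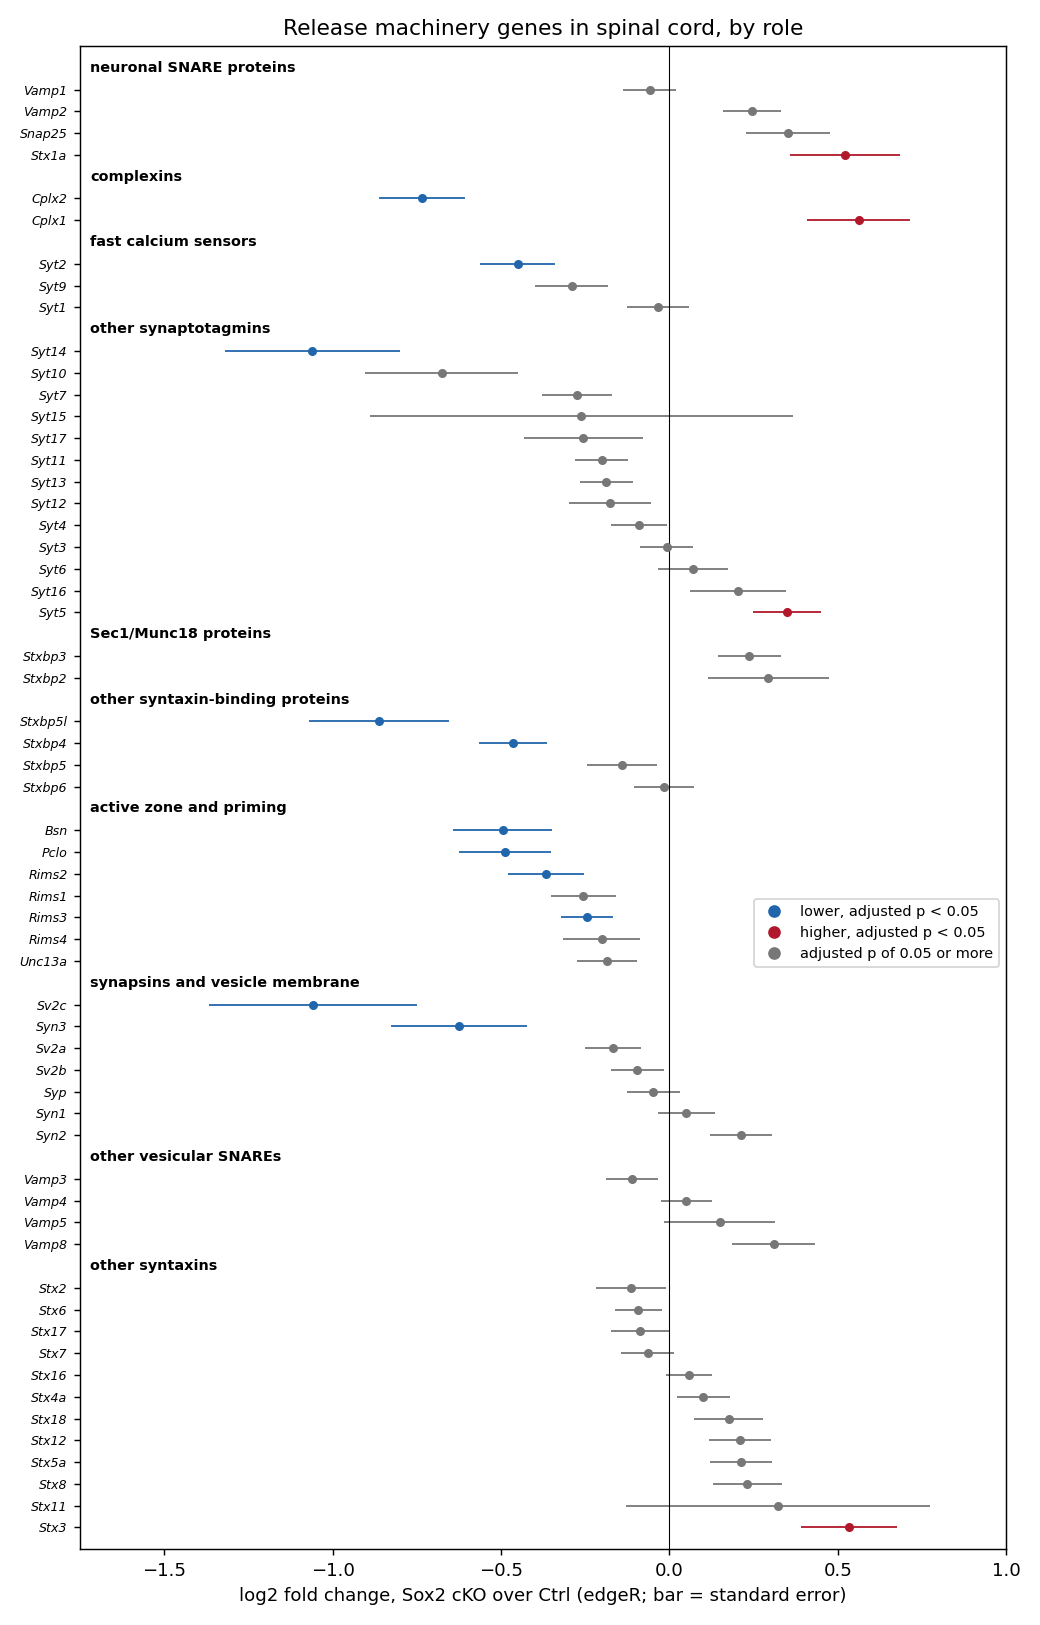
Log2 fold change of Sox2 cKO over Ctrl (horizontal axis) for 58 of the 60 tested members, grouped by role, with bars for the standard error and n = 3 libraries a group. The 11 members in blue were lower and the 4 in red higher at an adjusted p below 0.05 (edgeR), and all 7 active zone genes lie below 0. After a correction for gene length, Bsn, Pclo and Unc13a were above 0.

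Per length, the machinery spanned a wide range of levels in Ctrl spinal cord. Snap25, which encodes a SNARE protein of the plasma membrane, had the highest level, 421 ± 90.1 FPKM (SD, n = 3), followed by Cplx1 at 397 ± 111 and Vamp1 at 362 ± 15.8 FPKM. These means lay closer together than the spread of Snap25 or Cplx1 between libraries. Syt11 was at 232 and Syp at 184 FPKM. Altogether 35 of 61 members had a mean of at least 10 FPKM in Ctrl, and 3 (Stx19, Stx11 and Syt15) were under 1. Among VAMP proteins, Vamp1 held 67.5 ± 0.995% of the summed FPKM and Vamp2 20.3 ± 0.88% (SD, n = 3 Ctrl libraries). Among the synaptotagmins, Syt11, a form that does not bind calcium, held 41.8 ± 1.67%, the calcium sensor Syt2 held 23.3 ± 1.38% and its relative Syt1 held 5.87 ± 0.29%.

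The complexins, small proteins that bind the assembled SNARE complex, moved in opposite directions. Cplx1 (ENSMUSG00000033615, chr5:108518554-108550024 of mm10, minus strand) was at 1145, 836 and 703 CPM in libraries 2, 4 and 6 of Ctrl and at 1278, 1371 and 1315 CPM in libraries 1, 3 and 5 of Sox2 cKO. All Sox2 cKO libraries were above all Ctrl libraries, of which library 2 was the nearest. Its log2 fold change was 0.56 ± 0.15 (SE, adjusted p = 0.026 from edgeR). When single libraries were left out, it ranged from 0.42 to 0.78, with an adjusted p of up to 0.11 and a call in 1 of the 6 fits. After the length correction described below, Cplx1 was not called (adjusted p = 0.056). Cplx2 (ENSMUSG00000025867, chr13:54371349-54383917 of mm10, plus strand) was at 401, 526 and 569 CPM in Ctrl and at 273, 313 and 313 CPM in those of Sox2 cKO. Here the Ctrl libraries were all above the Sox2 cKO libraries, again with Ctrl library 2 nearest to them. Its log2 fold change was -0.73 ± 0.13 (SE, adjusted p = 0.012 from edgeR), or 1.66-fold lower, and it ranged from -0.87 to -0.63 when single libraries were left out, with an adjusted p of at most 0.066.

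Within a library, the FPKM ratio of Cplx1 to Cplx2 was 6.43, 3.58 and 2.78 in libraries 2, 4 and 6 of Ctrl and 10.6, 9.85 and 9.45 in libraries 1, 3 and 5 of Sox2 cKO. The ratio was thus higher in every Sox2 cKO library, and Ctrl library 2 lay between the other two Ctrl libraries and the Sox2 cKO libraries. Cplx1 made up 79.4 ± 6.58% of complexin FPKM in Ctrl and 90.9 ± 0.46% in Sox2 cKO (SD, n = 3). This ratio and the others given below were picked after the values had been seen, and are given without a test. They were not corrected for the trend of fold changes with gene length described below.

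Because the complexins parted most among the 9 related pairs compared, the 250 bases before the start of each are shown. They come from the RefSeq promoter table for GRCm38.p6, the build that mm10 stands for, and are written 5′ to 3′ on the strand of the gene. Capitals mark CAAAG, the core of the motif that SOX proteins bind, on either strand (so that its reverse complement CTTTG would also be in capitals). The first is chr5:108550028-108550277 on the minus strand and the second chr13:54302306-54302555 on the plus strand. The RefSeq start of Cplx2 lies upstream of the interval that GENCODE M21 gives for the gene.
Cplx1: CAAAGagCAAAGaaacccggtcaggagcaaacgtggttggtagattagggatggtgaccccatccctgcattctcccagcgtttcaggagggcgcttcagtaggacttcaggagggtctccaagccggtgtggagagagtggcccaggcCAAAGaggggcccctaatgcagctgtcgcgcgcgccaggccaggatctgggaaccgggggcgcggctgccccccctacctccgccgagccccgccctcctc
Cplx2: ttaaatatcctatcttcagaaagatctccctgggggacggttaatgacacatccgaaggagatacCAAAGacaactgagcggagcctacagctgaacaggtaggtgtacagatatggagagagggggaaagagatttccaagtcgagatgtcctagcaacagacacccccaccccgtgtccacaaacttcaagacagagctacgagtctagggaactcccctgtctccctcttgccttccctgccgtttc
The Cplx1 stretch held CAAAG 3 times and the Cplx2 stretch once, with a GC content of 64.8% and 50.8%. Over 300 bases around each RefSeq start, CAAAG on either strand was found in 45% of the 60 windows of the 47 members that matched the table, and in 53.9% of all 32851 windows. The letters TTCAGCACC, the left part of the RE1 element through which REST silences neuronal genes outside neurons, were found on either strand in 2 of the 60 windows, those of Syn1 and Unc13a, and in 0.371% of all windows. A match is a description of the letters in the window.

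The neuronal SNARE proteins differed among themselves, and 1 of 5 was called, or 20%, against 24.6% of all genes. Stx1a, a plasma membrane syntaxin of neurons, was at 12.6, 9.10 and 8.40 CPM in libraries 2, 4 and 6 of Ctrl and at 13.7, 16.3 and 13.2 CPM in libraries 1, 3 and 5 of Sox2 cKO. The groups did not overlap, and Ctrl library 2 was within 1 CPM of Sox2 cKO library 5. Its log2 fold change was 0.52 ± 0.16 (SE, adjusted p = 0.043 from edgeR).

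Snap25 was at 2577, 1921 and 1863 CPM in libraries 2, 4 and 6 of Ctrl and at 2610, 2838 and 2676 CPM in libraries 1, 3 and 5 of Sox2 cKO. The groups did not overlap, but Ctrl library 2 was closer to the Sox2 cKO libraries than to the other Ctrl libraries. Its log2 fold change of 0.35 did not pass the test in edgeR (adjusted p = 0.062) and did in DESeq2 (adjusted p = 0.024). Vamp2, a vesicular SNARE protein, was at 271, 239 and 237 CPM in Ctrl and at 299, 306 and 281 CPM in those of Sox2 cKO, a log2 fold change of 0.25 with an adjusted p of 0.060 in edgeR and 0.036 in DESeq2. Vamp1, its close relative, was at 1639, 1600 and 1586 CPM in Ctrl and at 1500, 1544 and 1591 CPM in those of Sox2 cKO. These groups overlapped, with a log2 fold change of -0.06 and an adjusted p of 0.62. The FPKM ratio of Vamp1 to Vamp2 was between 3.12 and 3.44 in Ctrl libraries and between 2.58 and 2.91 in the Sox2 cKO libraries. Vamp1 has 4288 bases and Vamp2 2205. After the length correction described below, the log2 fold changes were 0.02 for Vamp1 and 0.11 for Vamp2, and neither was called.

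**Figure D2:**
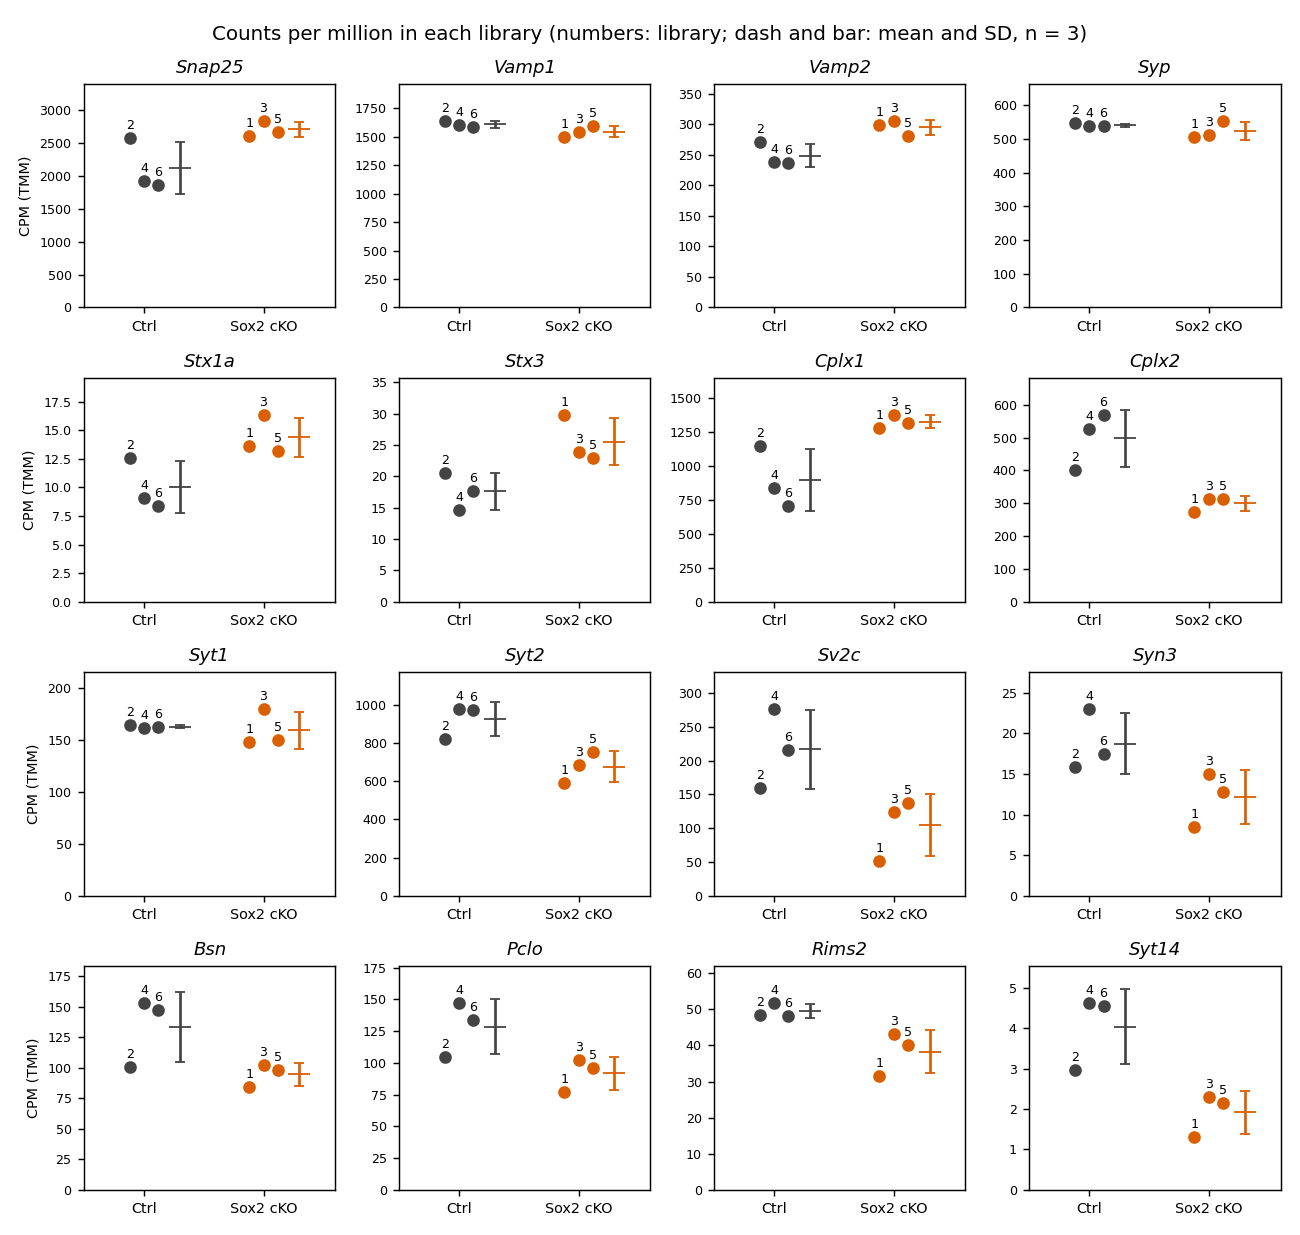
CPM (vertical axis, from 0) of 16 members in each Ctrl library (grey) and each Sox2 cKO library (orange), with the library number above each point and the mean and SD of n = 3 beside them. Ctrl library 2 is the Ctrl point nearest to the Sox2 cKO points for Snap25, Cplx1, Cplx2, Sv2c and Bsn, and Sox2 cKO library 1 is the lowest point for Sv2c, Syn3 and Syt14.

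Of 4 syntaxin-binding genes outside the Sec1 family, 2 fell, or 50%, against 12.4% of all genes. Stxbp5l, which encodes tomosyn-2, a protein that competes for syntaxin and SNAP-25, was at 31.0, 47.6 and 38.4 CPM in Ctrl and at 14.5, 26.0 and 23.8 CPM in those of Sox2 cKO. The groups did not overlap and Sox2 cKO library 1 was the lowest, with a log2 fold change of -0.86 ± 0.21 (SE, adjusted p = 0.019 from edgeR). Stxbp4, a syntaxin 4 partner, was tight within groups, with a mean of 18.6 ± 0.68 CPM in Ctrl and 13.4 ± 1.02 CPM in Sox2 cKO (SD, n = 3), and its log2 fold change was -0.46 ± 0.10 (SE, adjusted p = 0.015). After the correction for gene length described below, Stxbp4 was at -0.26 and not called (adjusted p = 0.079 from edgeR). Stxbp5, which encodes tomosyn-1, had a log2 fold change of -0.14 and an adjusted p of 0.33.

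Of the fast calcium sensors, 1 of 3 fell, or 33.3%, against 12.4% of all genes. Syt2 was at 823, 978 and 976 CPM in libraries 2, 4 and 6 of Ctrl and at 591, 688 and 752 CPM in libraries 1, 3 and 5 of Sox2 cKO. All Ctrl libraries were above all Sox2 cKO libraries, and the log2 fold change was -0.45 ± 0.11 (SE, adjusted p = 0.020 from edgeR). Syt1 was at 165, 161 and 163 CPM in Ctrl and at 148, 180 and 150 CPM in those of Sox2 cKO. Its groups overlapped, with a log2 fold change of -0.03 and an adjusted p of 0.82. The FPKM ratio of Syt2 to Syt1 was 3.50, 4.25 and 4.20 in Ctrl and 2.80, 2.68 and 3.51 in the Sox2 cKO libraries, and the groups overlapped in this ratio.

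Among the 13 other synaptotagmins, 1 fell and 1 rose, or 7.69% each way, against 12.4% and 12.2% of all genes. Syt14, a form without the residues that bind calcium, was at 2.96, 4.62 and 4.54 CPM in Ctrl and at 1.32, 2.29 and 2.15 CPM in those of Sox2 cKO. It was among the members with few reads, the groups did not overlap, and its log2 fold change was -1.06 ± 0.26 (SE, adjusted p = 0.020 from edgeR). Syt5 was at 21.04, 21.9 and 22.2 CPM in Ctrl and at 30.1, 28.6 and 24.3 CPM in those of Sox2 cKO, a log2 fold change of 0.35 ± 0.10 (SE, adjusted p = 0.033). All its Sox2 cKO libraries were above the narrow range of Ctrl. Syt10 had a log2 fold change of -0.68 that missed the threshold in edgeR (adjusted p = 0.053). Syt11 had one of -0.20 with groups that did not overlap (adjusted p = 0.083 from edgeR). DESeq2 called both lower, with an adjusted p of 0.023 for Syt10 and 0.018 for Syt11.

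The active zone and priming genes encode large scaffolds that hold vesicles and calcium channels together, and 4 of 7 fell, against 12.4% of all genes and 36.5% of all genes of 5000 bases or more. None of the 4 was still called after the correction for gene length described below. Bsn (Bassoon) was at 100, 153 and 147 CPM in libraries 2, 4 and 6 of Ctrl and at 83.8, 102 and 98.2 CPM in libraries 1, 3 and 5 of Sox2 cKO. It was the called member whose groups overlapped, since Ctrl library 2 was below Sox2 cKO library 3, and its log2 fold change was -0.50 ± 0.15 (SE, adjusted p = 0.037 from edgeR). Its relative Pclo (Piccolo) was at 105, 147 and 134 CPM in Ctrl and at 77.2, 102 and 95.6 CPM in those of Sox2 cKO, a log2 fold change of -0.49 ± 0.14 (SE, adjusted p = 0.029). The libraries stood in the same order within each group for both genes, and the FPKM ratio of Bsn to Pclo was between 1.02 and 1.18 in Ctrl libraries and between 1.07 and 1.16 in the Sox2 cKO libraries.

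Long RIM proteins tie vesicles to calcium channels through Rab3. Rims2 was at 48.4, 51.7 and 48.3 CPM in Ctrl and at 31.5, 43.1 and 40.2 CPM in those of Sox2 cKO, a log2 fold change of -0.37 ± 0.11 (SE, adjusted p = 0.041 from edgeR). Sox2 cKO library 1 was the lowest and the groups did not overlap. Rims1 was at 86.9, 97.8 and 102 CPM in Ctrl and at 71.0, 83.9 and 85.5 CPM in those of Sox2 cKO, a log2 fold change of -0.26 that did not pass the test (adjusted p = 0.074). Rims3, which encodes a short RIM protein, had a small but called change of -0.24 (SE 0.08, adjusted p = 0.045), from 147 ± 4.26 to 124 ± 6.41 CPM (SD, n = 3), and Rims4 one of -0.20 that was not called. Unc13a, which encodes the priming factor Munc13-1, was at 151, 175 and 157 CPM in Ctrl and at 131, 149 and 144 CPM in those of Sox2 cKO. Its groups did not overlap, with Ctrl library 2 close to Sox2 cKO library 3, and its log2 fold change was -0.19 (adjusted p = 0.15).

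Of the 7 genes for synapsins and vesicle membrane proteins, Sv2c and Syn3 fell, or 28.6%, against 12.4% of all genes. Sv2c, an SV2 glycoprotein of restricted distribution, was at 159, 276 and 216 CPM in libraries 2, 4 and 6 of Ctrl and at 51.5, 124 and 137 CPM in libraries 1, 3 and 5 of Sox2 cKO. The spread within each group was wide, with Sox2 cKO library 1 the lowest of all, and the groups did not overlap. Its log2 fold change was -1.06 ± 0.31 (SE, adjusted p = 0.034 from edgeR), or 2.08-fold lower, and DESeq2 gave an adjusted p of 0.076. Sv2a, the common form and the target of the drug levetiracetam, was at 515, 528 and 513 CPM in Ctrl and at 428, 488 and 469 CPM in those of Sox2 cKO, a log2 fold change of -0.17 (adjusted p = 0.16) without overlap. Sv2b was at 149, 159 and 154 CPM in Ctrl and at 136, 150 and 147 CPM in those of Sox2 cKO, a log2 fold change of -0.10 (adjusted p = 0.39). Sv2c made up 25.4 ± 4.88% of SV2 FPKM in Ctrl and 15.2 ± 5.47% in Sox2 cKO (SD, n = 3).

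The synapsins anchor the reserve pool of vesicles. Syn3 was at 15.8, 23.0 and 17.4 CPM in Ctrl and at 8.52, 15.04 and 12.8 CPM in those of Sox2 cKO. Its groups were apart by less than 1 CPM, between Ctrl library 2 and Sox2 cKO library 3, and its log2 fold change was -0.62 ± 0.20 (SE, adjusted p = 0.047 from edgeR). Syn1 was at 239, 240 and 222 CPM in Ctrl and at 223, 253 and 250 CPM in those of Sox2 cKO, with a log2 fold change of 0.05 (adjusted p = 0.68). Syn2 was at 218, 186 and 184 CPM in Ctrl and at 231, 235 and 215 CPM in those of Sox2 cKO, with a log2 fold change of 0.21 (adjusted p = 0.11). Syp, which encodes synaptophysin, a standard marker of synaptic vesicles, was at 547, 538 and 538 CPM in Ctrl and at 505, 511 and 554 CPM in those of Sox2 cKO. The groups overlapped for Syn1, Syn2 and Syp alike, and the log2 fold change of Syp was -0.05 (adjusted p = 0.68).

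The remaining syntaxins and VAMP proteins serve other membranes of the cell, and 1 of 16 tested was called, against 24.6% of all genes. Stx3, a plasma membrane syntaxin known from ribbon synapses and epithelia, was at 20.6, 14.6 and 17.6 CPM in libraries 2, 4 and 6 of Ctrl and at 29.8, 23.8 and 22.9 CPM in libraries 1, 3 and 5 of Sox2 cKO. All Sox2 cKO libraries were above all Ctrl libraries. Its log2 fold change was 0.53 ± 0.14 (SE, adjusted p = 0.025 from edgeR). Vamp3, a widely expressed form, had a log2 fold change of -0.11 (adjusted p = 0.31).

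**Figure D3:**
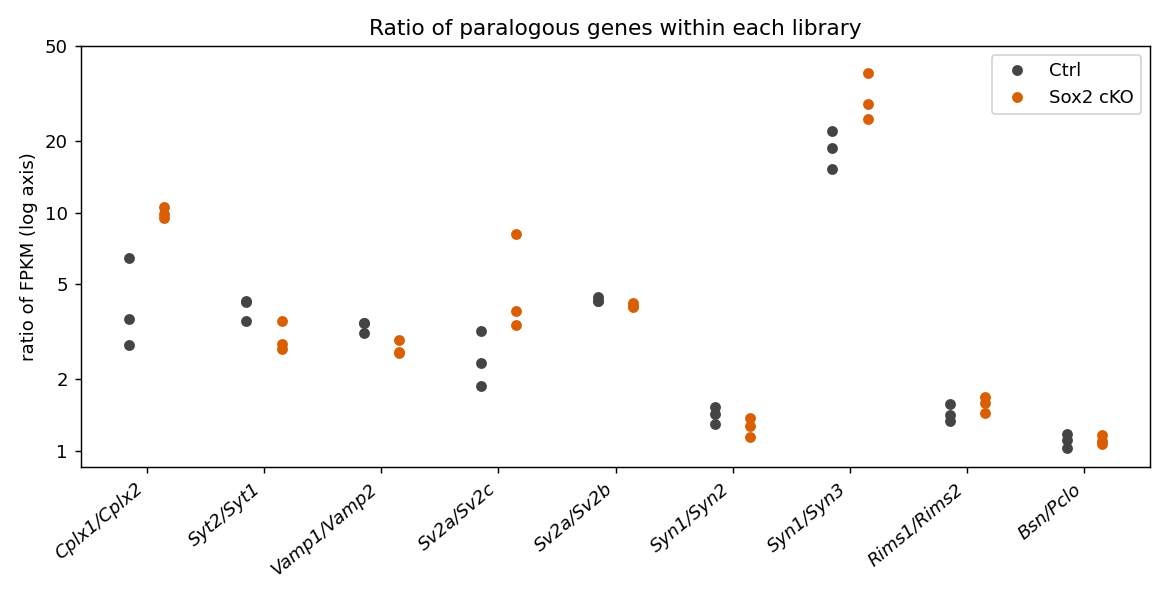
Ratio of the FPKM of 2 related genes within each library (vertical log axis), for 9 pairs, with Ctrl libraries in grey and Sox2 cKO libraries in orange. The Cplx1 to Cplx2 ratio is between 2.78 and 6.43 in Ctrl and between 9.45 and 10.6 in the Sox2 cKO libraries, while the Bsn to Pclo ratio is close to 1 in both. The ratios are not corrected for the trend of each library with gene length.

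Fold changes in these libraries followed gene length, and members had a median length of 3835 bases, against 3060 for all genes tested. The rank correlation (Spearman's rho) of the log2 fold change with length was -0.475 over the 60 members and -0.481 over all genes, where genes share the same 6 libraries. All 12 members of 5000 bases or more were below 0, as were 2500 of all 3024 genes of that length, and 5 of them (41.7%) were called lower, as were 36.5% of all genes of that length. Of the 14 members under 2500 bases, 1 was called lower (7.14%) and 3 higher (21.4%), against 2.35% and 23.6% of all genes of that length. When each library was corrected for its own trend with length, rho over the members was 0.03, their median log2 fold change was -0.01, and 7 members were called, or 11.7%, against 13.1% of all genes.

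The correction left the members in different positions. Of the 15 called members, 13 kept their direction and 4 remained called. These were Cplx2 at -0.60 (adjusted p = 0.018), Stxbp5l at -0.77 (0.033), Syt14 at -1.27 (0.026) and Stx3 at 0.52 (0.036). Snap25 at 0.48 (0.040), Syt10 at -0.86 (0.043) and Vamp3 at -0.26 (0.040) were called after the correction and not before it. Bsn and Pclo, the longest members at 15938 and 17057 bases, had length-corrected log2 fold changes of 0.0001 and 0.01, and Rims3 one of 0.00, while Rims2 was at -0.24 (adjusted p = 0.11). Cplx1 was at 0.43 (adjusted p = 0.056), Sv2c at -0.98 (0.056) and Syt2 at -0.19 (0.11), all from edgeR. The cause of the trend with length was not tested.

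**Figure D4:**
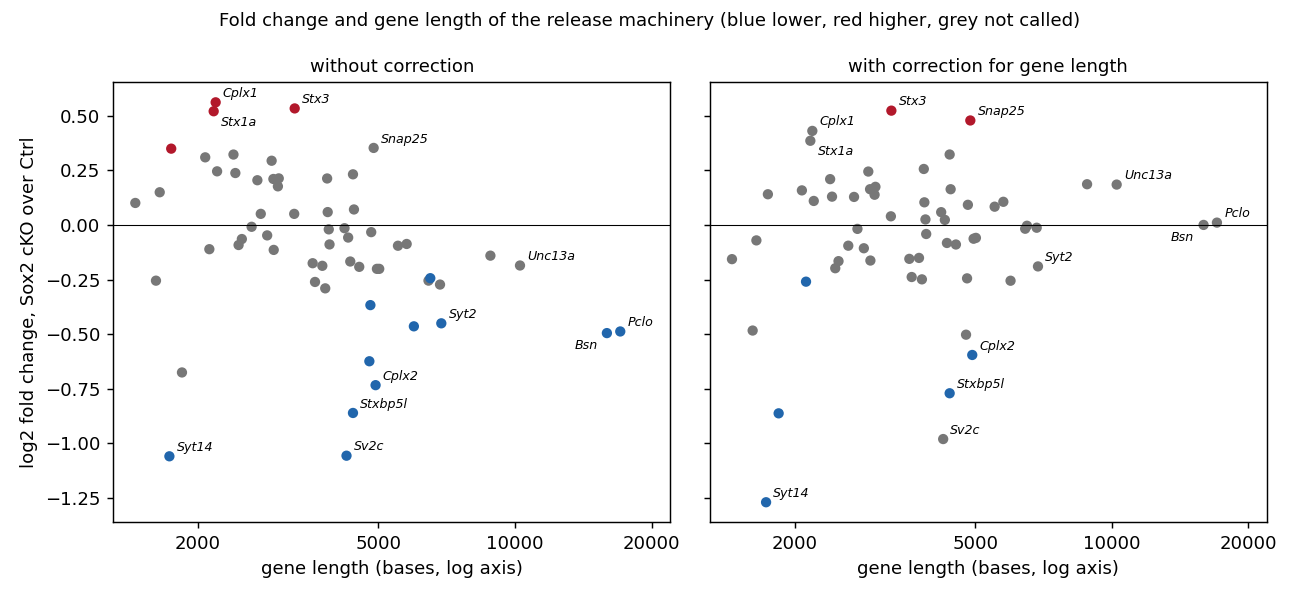
Log2 fold change of Sox2 cKO over Ctrl (vertical axis) against gene length in bases (horizontal log axis) for the 60 tested members, before (left) and after (right) correction of each library for its trend with length. Blue and red mark genes called lower and higher by edgeR, and Bsn and Pclo move from about -0.5 to about 0, while Cplx2, Stxbp5l and Syt14 stay below -0.5.

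The other genes of the release and recycling pathway were taken from lists of 80 names, which matched 79 genes of the table, all tested, since 1 gene was listed under 2 names. Of these, 28 were called, or 35.4%, against 24.6% of all genes, with 17 lower and 11 higher. After the length correction 15 of the 79 were called, against 13.1% of all genes. Among the 7 genes that take SNARE complexes apart or resemble Snap25, only Snap47 was called, higher at 0.28 (adjusted p = 0.042 from edgeR). Nsf, the ATPase that disassembles the complex, had a log2 fold change of 0.04 (adjusted p = 0.79), and Snap23, the ubiquitous relative of Snap25, one of 0.27 (adjusted p = 0.12). Of 29 other active zone, docking and priming genes, 9 were lower and 2 higher, or 31% and 6.9%. Of all genes, 12.4% were lower and 12.2% higher. After the length correction, 1 of the 29 was called lower and 1 higher, against 1128 and 981 of all 16137 genes. Cask, a scaffold kinase, fell by 0.64 on the log2 scale (adjusted p = 0.016), while its small partner Lin7b was higher by 0.67 (adjusted p = 0.012) and Rab3a, the vesicle GTPase that RIM binds, by 0.42 (adjusted p = 0.015). With the length correction, Cask was at -0.31 (adjusted p = 0.068), Lin7b at 0.28 (0.054) and Rab3a at 0.18 (0.093), and none of them was called.

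Of 20 other genes of the vesicle membrane and of transmitter loading, 2 were lower and 5 higher, or 10% and 25%. Of all genes, 12.4% were lower and 12.2% higher. Sncg, which encodes a synuclein, rose by 0.98 on the log2 scale (adjusted p = 0.013 from edgeR), and by 0.625 with the length correction (adjusted p = 0.03). Among transporters that fill vesicles, Slc18a3, the vesicular acetylcholine transporter, fell by 0.46 (adjusted p = 0.029), with groups that overlapped. Slc17a6, the main vesicular glutamate transporter of spinal cord, had a log2 fold change of -0.03 and Slc32a1, the vesicular transporter of GABA and glycine, one of 0.24 (adjusted p = 0.056). Slc17a7, Slc17a8 and Slc18a2 were low and not called, with log2 fold changes of -0.20, 0.00 and -0.20. Of 23 genes of vesicle retrieval, 6 were lower and 3 higher, or 26.1% and 13%. The largest falls were Ston2 at -0.88 (adjusted p = 0.012) and Itsn1 at -0.72 (adjusted p = 0.014), an adaptor and a scaffold of endocytosis. With the length correction, Ston2 was at -0.79 (adjusted p = 0.018 from edgeR). Itsn1, with 14012 bases, was then at -0.26 (adjusted p = 0.043). All calls in these lists were lost by edgeR without Ctrl library 4 or without Sox2 cKO library 1.

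Marker genes were read beside these results. Of 15 neuronal markers, 3 were lower (Nefh, Elavl3, Map2) and 3 higher (Uchl1, Stmn2, Thy1), or 20% each way. Of all genes, 12.4% were lower and 12.2% higher. After the length correction, only Nefh was called lower and only Uchl1 higher. That correction called 1128 of all 16137 genes lower and 981 higher. The 15 markers summed to 12710 to 13960 CPM in Ctrl and 11910 to 12400 CPM in those of Sox2 cKO, which did not overlap. This sum is weighted to the most abundant markers in Ctrl, Nefm and Nefh. The mean of Nefm went from 4417 to 3634 CPM and that of Nefh from 2199 to 1604 CPM, so the sum does not describe the neuronal markers in general. Of the 15, 8 were above 0, and the median log2 fold change was 0.06. Of 6 motor and cholinergic markers, 0 were called, and their sums were 401 to 468 CPM and 450 to 464 CPM. The 61 members summed to 13180 to 14050 CPM in Ctrl and 12780 to 13970 CPM in those of Sox2 cKO, which overlapped. Of 12 astrocyte markers, 7 were lower and 1 higher, with sums of 9958 to 12090 CPM in Ctrl and 7582 to 7961 CPM in those of Sox2 cKO, and of 6 markers of oligodendrocyte precursors, 5 were lower, with sums of 309 to 329 CPM and 227 to 248 CPM. After the length correction, 4 of the 12 astrocyte and 2 of the 6 precursor markers were called lower, and 0 of either higher. Of all genes, 13.1% were then called in either direction. Skeletal muscle markers summed to 5.36 to 13.1 CPM in Ctrl and 4.4 to 70.6 CPM in those of Sox2 cKO, which overlapped, with 1 of 5 higher. Of 9 oligodendrocyte, 8 microglial, 6 endothelial, 4 Schwann cell and 5 red blood cell markers, 0, 1, 1, 0 and 0 were called. No marker was at 0 in every library, and the part of these cells in the members' differences was not tested.

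Some members share their locus with another counted gene on the opposite strand, and whether the counting used strand is not given in the sources used here. These include Syn1 with Araf, Syn2 with Timp4, Syn3 with Timp3, Syt2 with Ppp1r12b, Unc13a with Colgalt1 and Vamp1 with Tapbpl. Vamp3 shares its locus with Camta1 on the same strand. The values of these genes are uncertain to the extent that reads could be counted for the partner.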

How the data were processed

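The authors aligned single-end reads of directional poly(A) libraries to mm10 with STAR 2.5 and counted reads per gene with HTSeq 0.6.1, and deposited these counts without normalization. The FPKM values deposited by the authors divide by gene length and library total. No further column of per-sample values was present. Group means that the study lists were read only to check the groups, and its fold changes were not used.

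Gene names and positions came from GENCODE M21, which matched 34490 of 35275 identifiers. Members and lists were chosen with earlier results of these data known. The test was that of edgeR 4.0.16 in R 4.3.3 (filterByExpr, TMM, quasi-likelihood test, no covariate, Benjamini-Hochberg at 0.05), and the fits were tested on simulated data. For 1 gene, the smallest p of an exact permutation test with 3 mice a group is 0.1. Named with values in each library were the neuronal SNARE proteins, the main synaptotagmins, complexins, active zone genes, synapsins, vesicle membrane genes, and the members with the 5 largest called changes each way (4 were called higher). Other genes were named by log2 fold change. Of the other pathway genes, the 3 largest called changes each way, Nsf, Snap23, Rab3a and the vesicular transporters were named. Alternatives were DESeq2 1.42.0, upper quartile normalization, other filters on low counts, limma 3.58.1 on log2 FPKM with pseudocounts of 1 and 0.1 (mean FPKM of at least 0.5), a lowess length correction with a span of 0.3, and fits without single libraries. Values of 3 genes that this rule names are not reported here.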

Additional observations from a re-analysis of the deposited data

How the results depend on the processing

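No paired analysis was possible because the sources used here name no pairs of mice and the columns of the deposited tables carry no replicate numbers. With all 6 libraries, 11 members were called lower and 4 higher, the member median was -0.09 on the log2 scale, and 28 other pathway genes and 3970 genes in all were called. Without a filter on low counts, with at least 10 counts in every library and with DESeq2, these counts stayed within 1.5 times. Upper quartile normalization called 9 members lower and 7 higher, with a member median of -0.044. Limma on log2(FPKM + 1) and on log2(FPKM + 0.1) both called 5 lower and 8 higher, with member medians of 0.0094 and 0.0102, where the medians of all genes had moved from 0.02 to 0.09 and 0.11. The length correction called 5 lower and 2 higher, 7 in all, with a median of -0.0083, and called 15 other pathway genes and 2109 genes in all.

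When single libraries were left out, edgeR and DESeq2 together called 0 to 18 members lower, 0 to 13 higher and 0 to 30 in all, with a median between -0.116 and -0.0472. The other pathway genes called were 0 to 40, and all genes called 8 to 6119. Without Ctrl library 4 or Sox2 cKO library 1, edgeR called 0 members (15 and 19 had an unadjusted p under 0.05). DESeq2 called 6 and 8 members there (1981 and 2342 of all genes). The highest counts of members called and of all genes called came without Ctrl library 2.

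Some members named with values changed sign, among them Bsn and Pclo, which had been called lower. With the length correction, Bsn was at 0.0001, Pclo at 0.0106, Sv2b at 0.0836, Syt1 at 0.0922, Unc13a at 0.185 and Vamp1 at 0.0232. With upper quartile normalization, Syt1 was at 0.0109. In the limma fits with pseudocounts of 1 and 0.1, Syt1 was at 0.0585 and 0.060, Syp at 0.0498 and 0.050, Vamp1 at 0.0409 and 0.041, and Sv2b at 0.0028 and 0.0029. Without single libraries, Syt1 was between -0.1459 and 0.0186. Beyond their construction, the cause of these changes was not tested.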

Other observations

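Vesicle retrieval held genes of 1 complex that moved in opposite directions. These genes were chosen after their values were seen. AP-2 is the adaptor that gathers vesicle proteins into clathrin coats. Its subunit genes Ap2b1 and Ap2a1 fell in Sox2 cKO, by log2 fold changes of -0.57 (adjusted p = 0.014 from edgeR) and -0.37 (adjusted p = 0.032), while Ap2s1 was higher at 0.62 (adjusted p = 0.012). Ap2m1 was at 0.04 and Ap2a2 at -0.24, and neither was called. The genes differ in length, Ap2b1 with 5625 bases and Ap2s1 with 1054 bases. After the length correction both directions were still called, with Ap2b1 at -0.38 (adjusted p = 0.030), Ap2a1 at -0.36 (adjusted p = 0.042) and Ap2s1 at 0.29 (adjusted p = 0.032).

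The liprins, scaffolds that bind RIM and CASK, gave the other case. Ppfia2, Ppfia3 and Ppfia4 were all called lower, at -0.33, -0.34 and -0.32 on the log2 scale (adjusted p = 0.040, 0.030 and 0.045 from edgeR), and Ppfia1 was at -0.17. After the length correction the 3 were at -0.09, -0.20 and -0.10, and none of the 3 was called (adjusted p = 0.41, 0.089 and 0.42). All these calls were lost by edgeR without Ctrl library 4 or without Sox2 cKO library 1.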
